A study of Homo sapiens with 33 samples.

Results

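The E2F, RB, FOXM1 and MYBL2 regulators are 10 genes that control transcription through the cell cycle: E2F1, E2F2, E2F3, E2F7, E2F8, RB1, RBL1, RBL2, MYBL2 and FOXM1. They were taken by symbol, and each symbol matched 1 of the 78932 gene identifiers in the files. The rule was membership in this family and used no measured value, but the set was drawn up with earlier results of these data known. 9 of the 10 had a mean of at least 1 TPM (a share of all transcripts, corrected for gene length and scaled to a fixed total) in the sorted libraries and were tested, and E2F2 was the exception.

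All libraries came from untreated HepG2, an established human hepatocellular carcinoma line. RNA was sequenced from 6 fractions of cells sorted along the cell cycle, G1, S1, S2, S3, S4 and G2, each with 2 libraries numbered as replicates 2 and 3. Bulk cells gave 3 more libraries, numbered 1 to 3. Sorted RNA went into a stranded total RNA kit for ultra-low inputs and bulk RNA into a stranded mRNA kit, so the kit, the class of RNA and the cell state cannot be told apart in any comparison of sorted with bulk. The labels name nuclear RNA for both. They mention no separate cultures, and every p-value here is therefore relative to a spread among libraries that could be technical alone.

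Recovered read counts were 6128803 to 18484584 in the sorted libraries and 22340383 to 24423128 in bulk. Protein-coding genes made up 11.2% to 15.5% of a sorted library's TPM and 76.7% to 77.6% of a bulk library's. The mitochondrial genome held 8.66% to 16.7% of the TPM in the 6 sorted libraries of replicate 2 and 2.22% to 9.97% in those of replicate 3. Of 10 hepatocyte markers, all but APOB (mean 0.142 TPM in sorted libraries) were abundant, from 42.7 TPM for TTR to 3052 TPM for ALB. In the sorted libraries, markers of fibroblasts summed to 1.18 to 5.19 TPM and those of endothelium to 0.910 to 3.27 TPM. In bulk the sums were 9.79 to 10.6 TPM and 0.585 to 0.898 TPM. Of 6 leukocyte markers, LYZ stood at 284 TPM in the sorted libraries and the other 5 below 1 TPM. Among these 5, PTPRC, the pan-leukocyte antigen CD45, was near 0.

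E2F proteins bind DNA with a DP partner. E2F1, E2F2 and E2F3 activate the genes of DNA replication, whereas E2F7 and E2F8 are atypical members that bind without a partner and repress the same genes later in S phase. The pocket proteins RB1 (pRb), RBL1 (p107) and RBL2 (p130) hold E2F in check until cyclin-dependent kinases phosphorylate them. MYBL2 (B-MYB) joins the MuvB complex in S phase, and FOXM1 is then recruited to drive the genes of mitosis. In the liver the same circuit governs regeneration and the polyploidy of hepatocytes.

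Because E2F genes are themselves E2F targets, the sequences just upstream of the start of transcription are shown for some of the members. These are the 4 genes with an exact E2F word there and MYBL2, whose window held none of the words searched. The windows of E2F7 and RBL2 held no E2F word either and are not shown. RefSeq promoter windows (GRCh38.p14, 250 bases before to 50 after the start) were found for 8 of the 10 genes, and the window listed for RB1 lay far inside the gene and was not shown. Each line holds the last 80 bases before the start, 5′ to 3′ on the strand of the gene. Capitals mark matches to the E2F consensus words TTTCCCGC, TTTCGCGC, TTTGCCGC and TTTGGCGC on either strand. Sites that vary from these words were not searched for, so a stretch without capitals may still hold one.
E2F1: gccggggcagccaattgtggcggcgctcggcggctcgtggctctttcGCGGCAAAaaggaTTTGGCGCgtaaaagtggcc
E2F2: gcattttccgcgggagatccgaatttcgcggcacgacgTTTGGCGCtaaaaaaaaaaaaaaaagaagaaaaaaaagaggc
E2F3: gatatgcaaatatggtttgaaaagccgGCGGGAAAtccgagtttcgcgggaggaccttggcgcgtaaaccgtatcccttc
RBL1: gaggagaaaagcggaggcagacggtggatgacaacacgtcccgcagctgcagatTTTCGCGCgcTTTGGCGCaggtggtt
MYBL2: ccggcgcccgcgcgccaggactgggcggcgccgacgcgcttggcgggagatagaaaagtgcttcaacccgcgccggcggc

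These stretches lie at chr20:33686386-33686465 for E2F1, chr1:23531234-23531313 for E2F2, chr6:20401799-20401878 for E2F3, chr20:37095998-37096077 for RBL1 and chr20:43667034-43667113 for MYBL2. E2F1, E2F2 and RBL1 are read on the minus strand and E2F3 and MYBL2 on the plus strand. E2F1 and RBL1 each held 2 words, and E2F2 and E2F3 held 1. The 8 genes had 10 windows, 2 each for E2F3 and RBL2 and 1 inside RB1. An E2F word was found in 4 of the 10 windows, against 3.31% of all 35116 RefSeq windows of 300 bases. The first core of the cell cycle homology region, TTTGAA, was found in 2 of the 10, for E2F3 and RBL2 (15.2% of all windows), and the second core, TTCGAA, in 0 (1.45% of all windows). No E2F word overlapped another or a TTTGAA. These matches describe letters in a window and say nothing of binding in these cells.

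In the plot of levels by library, 9 of the regulators were present in every library, and only the FOXM1 panel starts at its lowest point in G1 in both replicates. By mean TPM over the 12 sorted libraries the order was E2F1 (27.9), MYBL2 (25.1), FOXM1 (19.1), RBL2 (17.3), RBL1 (15.8), E2F3 (9.70), E2F8 (6.90), RB1 (6.46) and E2F7 (4.45), with E2F2 at 0.00586. In the tests among fractions, limma compared log2(TPM + 1) over all 17022 genes with Benjamini-Hochberg adjustment at 0.05. No member passed for any difference among the 6 fractions, where 0.0176% of all genes passed. None passed for S (the mean of S1 to S4) against G1, where 0% of all genes passed, for G2 against G1, where 0.00587% passed, or for the slope over S1 to S4, where 0% passed. At an unadjusted p under 0.05, 470, 891, 469 and 500 of all genes lay in these 4 comparisons, and FOXM1 in S against G1 was the only member. The limma voom fit to the recovered reads also called no member.

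**Figure D1:**
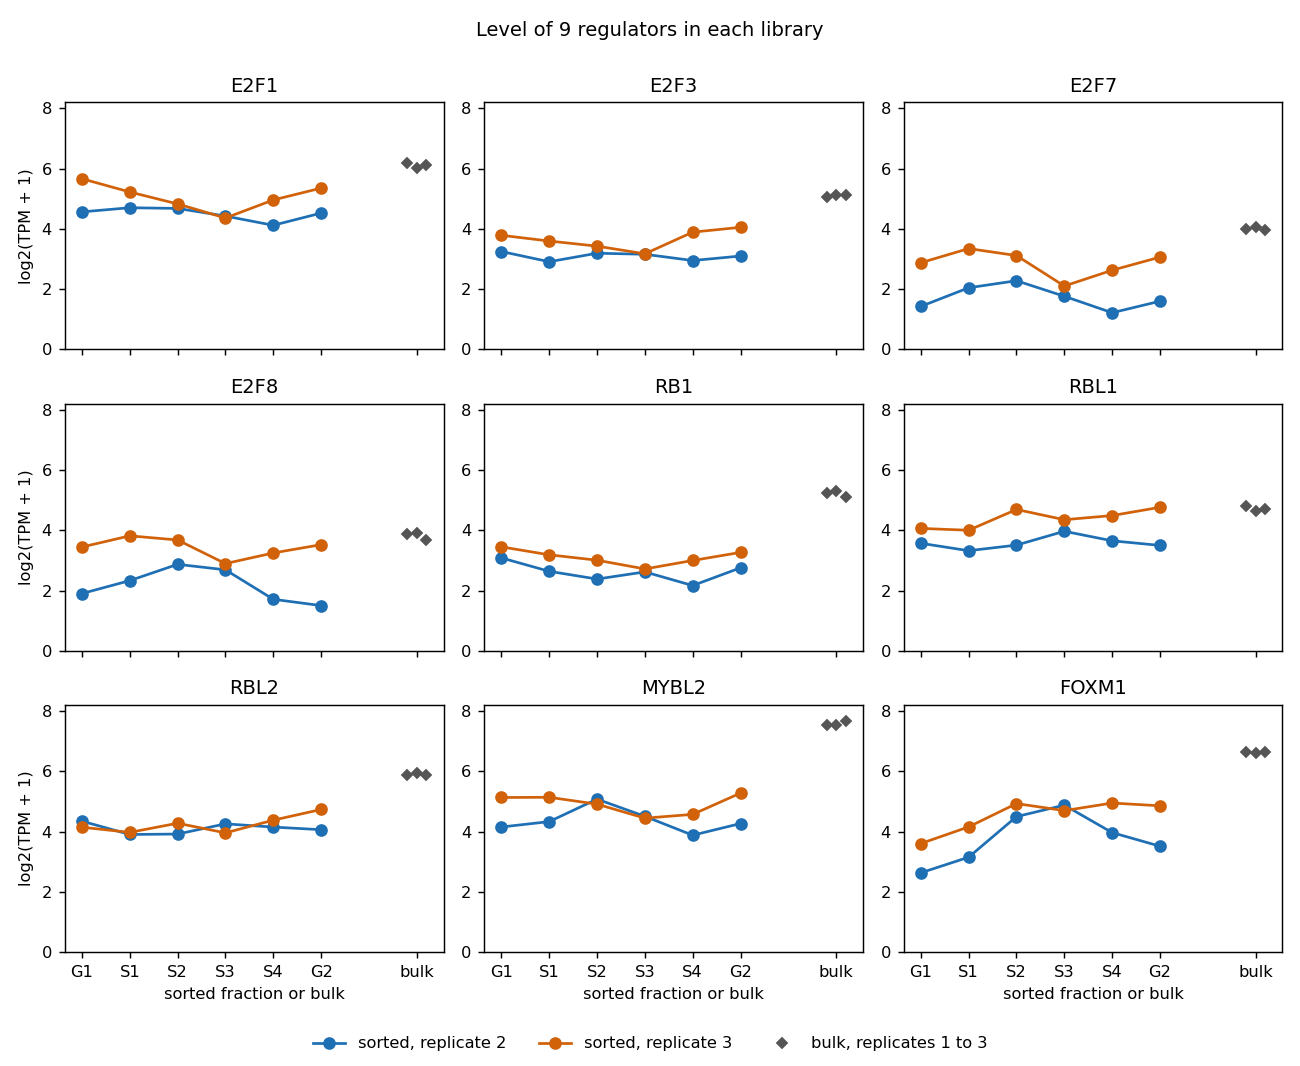
Level as log2(TPM + 1) (vertical axis) of 9 regulators in the 6 sorted fractions (replicate 2 in blue, replicate 3 in orange) and in the 3 bulk libraries (grey), 1 point per library. FOXM1 is lowest in G1 in both replicates (2.63 and 3.60), and RB1 is highest there (3.08 and 3.45).

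The activator E2F1 (ENSG00000101412, chr20:33675477-33686385) stood at 22.7 and 49.7 TPM in G1, replicates 2 and 3 in that order here and below. It measured 25.02 and 36.4 TPM in S1, 24.6 and 27.4 in S2, 20.5 and 19.5 in S3, 16.4 and 30.1 in S4 and 22.0 and 39.9 in G2. The 2 replicates took different courses: replicate 2 lay between 16.4 and 25.02 TPM throughout, while replicate 3 was highest in G1 and lowest in S3. S against G1 was -0.45 ± 0.35 on the log2 scale (SE, adjusted p = 0.816 by limma), with the difference at -0.08 within replicate 2 and -0.82 within replicate 3. Without G1 replicate 3 the value turned to 0.10, and without G1 replicate 2 it was -1.002.

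E2F3 (ENSG00000112242, chr6:20401879-20493714), the other activator above 1 TPM, measured 8.50 and 12.8 TPM in G1, 6.51 and 11.1 in S1, 8.14 and 9.75 in S2, 7.92 and 8.02 in S3, 6.72 and 13.8 in S4 and 7.56 and 15.6 in G2. Replicate 3 was the higher of the pair in 6 of 6 fractions, and neighbouring fractions in the order of means overlapped. Its S against G1 value was -0.23 ± 0.34, and G2 against G1 gave 0.06 ± 0.42 (SE). The sign of its slope over S1 to S4, 0.04 ± 0.13, depended on the scaling of the libraries.

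E2F2 (ENSG00000007968, chr1:23505212-23531233), an activator with a redundant role beside E2F1 and E2F3, was at 0 in 10 of the 12 sorted libraries and in all 3 bulk libraries. G1 replicate 3 stood at 0.0226 TPM and S2 replicate 2 at 0.0477 TPM, for which 1 and 2 reads are the smallest counts that fit. Counts are fixed only for genes above 0 in at least 3 libraries, so these are not. A count of 0 allows up to 3.69 reads per library at the 97.5% exact Poisson limit, for counting error only. Its E2F word in the promoter window was therefore seen beside a transcript that was near or below detection here.

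The atypical repressors had the widest gap between replicates. E2F7 (ENSG00000165891, chr12:77021251-77065569) measured 1.69 and 6.34 TPM in G1, 3.13 and 9.17 in S1, 3.85 and 7.66 in S2, 2.39 and 3.29 in S3, 1.32 and 5.18 in S4 and 2.03 and 7.35 in G2. E2F8 (ENSG00000129173, chr11:19224063-19241655) measured 2.73 and 9.89 TPM in G1, 4.02 and 13.1 in S1, 6.30 and 11.8 in S2, 5.44 and 6.43 in S3, 2.27 and 8.49 in S4 and 1.83 and 10.5 in G2. Both were highest in S2 in replicate 2 and in S1 in replicate 3.

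Replicate 3 exceeded replicate 2 in 6 of 6 fractions for both genes, by a median of 1.36 log2 units for E2F7 and 1.51 for E2F8. In replicate 2 the counts were low, at 63 reads for E2F7 in G1 (95% exact Poisson interval 48.4 to 80.6) and 61 for E2F8 in G2 (46.7 to 78.4). For E2F7 and E2F8, S against G1 was 0.16 ± 0.56 and 0.23 ± 0.64, and the slope over S1 to S4 was -0.31 ± 0.22 and -0.23 ± 0.26 (SE). Each of these values was smaller than the gap between replicates. The part of the lower mitochondrial share of replicate 3 in this gap was not tested.

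Of the pocket proteins, RB1 (ENSG00000139687, chr13:48303751-48481890), which binds the activator E2Fs, was highest in G1 in both replicates. It measured 7.47 and 9.92 TPM in G1, 5.22 and 8.09 in S1, 4.21 and 7.04 in S2, 5.14 and 5.57 in S3, 3.48 and 6.98 in S4 and 5.75 and 8.61 in G2. Within each replicate all 5 other fractions lay below G1, a pattern that 6.73% of the 17022 genes also showed. When the replicates were pooled G1 overlapped S1 and G2, since G1 of replicate 2 was below S1 and G2 of replicate 3. It did not overlap S2, S3 or S4. The share of all genes with this placement was not counted. S against G1 was -0.55 ± 0.29 (SE, adjusted p = 0.816 by limma), beside a median of -0.20 over all genes tested. The pattern depended on the scaling of the libraries: after median-ratio scaling or after rescaling to protein-coding genes, RB1 no longer lay below G1 in all 10 differences, although S against G1 stayed at -0.37 and -0.44.

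RBL1 (ENSG00000080839, chr20:36996349-37095997), which pairs with the repressive E2Fs in cycling cells, measured 10.9 and 15.7 TPM in G1, 8.997 and 15.005 in S1, 10.4 and 24.8 in S2, 14.6 and 19.4 in S3, 11.6 and 21.4 in S4 and 10.3 and 26.2 in G2. It lay above G1 in 6 of the 10 within-replicate differences of TPM as deposited. After rescaling to protein-coding genes it did so in 10 of 10, as did 4.11% of the 17022 genes. That scale was added after the data had been seen. RBL1 also lay above G1 in 10 of 10 after median-ratio scaling, as did 4.52% of the genes. S against G1 was 0.18 ± 0.42 and G2 against G1 0.32 ± 0.53 (SE), neither passing the test. Without G2 replicate 3 the latter was -0.32, and without G2 replicate 2 it was 0.95.

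RBL2 (ENSG00000103479, chr16:53434471-53491648), the pocket protein known for quiescent cells, differed least of the 9 between replicates, by a median of 0.15 log2 units. It measured 19.4 and 16.7 TPM in G1, 14.0 and 14.7 in S1, 14.1 and 18.4 in S2, 18.2 and 14.6 in S3, 16.8 and 19.8 in S4 and 15.7 and 25.7 in G2. Its S against G1 value was -0.14 ± 0.23 (SE) and turned to 0.06 after median-ratio scaling. Neighbouring fractions in the order of means overlapped, and no fraction stood apart in both replicates.

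MYBL2 (ENSG00000101057, chr20:43667114-43716482) measured 16.8 and 34.1 TPM in G1, 19.2 and 34.3 in S1, 32.8 and 29.1 in S2, 21.8 and 20.8 in S3, 13.7 and 22.8 in S4 and 18.3 and 37.9 in G2. It was highest in S2 in replicate 2 and in G2 in replicate 3, and in both replicates S4 or S3 was lowest. S against G1 was -0.03 ± 0.36 and the slope over S1 to S4 -0.20 ± 0.14 (SE). The sign of the first depended on scaling, at 0.17 after median-ratio scaling. Its closest members over the 12 sorted libraries were E2F7 (Pearson r = 0.86) and E2F8 (r = 0.80) after the mean of each replicate number was subtracted. These r values are descriptions over 12 libraries that share depth and scaling within a library.

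FOXM1 (ENSG00000111206, chr12:2857680-2877174), the forkhead activator of mitotic genes, had the largest S against G1 difference of the 9 tested members. It measured 5.20 and 11.2 TPM in G1, 7.89 and 16.9 in S1, 21.6 and 29.5 in S2, 28.5 and 24.97 in S3, 14.7 and 29.9 in S4 and 10.5 and 28.0 in G2. G1 was the lowest fraction in both replicates, and S2, S3 and S4 lay above both G1 libraries in all 6 libraries. That placement was not counted over all genes. S against G1 was 1.29 ± 0.43 (SE, unadjusted p = 0.0147, adjusted p = 0.816 by limma), G2 against G1 1.07 ± 0.55 and the slope over S1 to S4 0.25 ± 0.17. FOXM1 exceeded G1 in all 10 within-replicate differences, as did 2.06% of the 17022 genes. It did so too after median-ratio scaling, as did 4.52% of the genes, and after rescaling to protein-coding genes, as did 4.11%.

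Without G1 replicate 2 the S against G1 value was 0.80, and without G1 replicate 3 it was 1.77. G2 against G1 depended on a library too, at 0.40 without G2 replicate 3 and 1.74 without G2 replicate 2. The slope was 0.098 without S1 replicate 2 and 0.40 without S1 replicate 3. The highest fraction was S3 in replicate 2 and S4 in replicate 3. Over the 9 members, all 45 pairs of neighbours in the order of fraction means overlapped when both replicates were pooled. Neighbours are the closest fractions by mean and each has 2 libraries, so this says little about fractions further apart. The overlap was not counted over all genes. Within a replicate some orders were the same in both: FOXM1 in S1 was above G1 by 0.52 and 0.55 log2 units, and RB1 in G2 differed from G1 by -0.33 and -0.18.

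**Figure D2:**
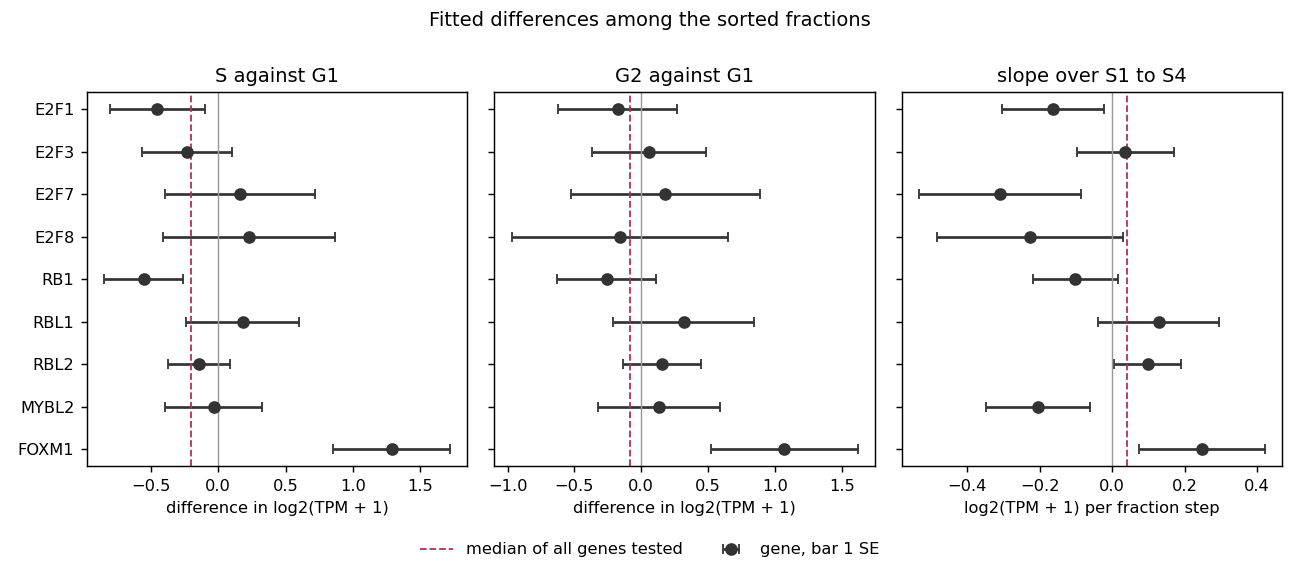
Fitted values for the 9 tested regulators in S against G1, G2 against G1 (both as a difference in log2(TPM + 1)) and the slope over S1 to S4 (log2(TPM + 1) per step), with bars of 1 SE and the median of all 17022 genes as a dashed line. FOXM1 lies at 1.29 and 1.07 in the first 2 panels, and the other 8 regulators lie between -0.55 and 0.32 there.

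Ratios of 2 genes within a library do not depend on how the libraries are scaled, and pairs of regulators were compared that way. The pairs described were chosen after their values were seen, so no test is given. The TPM of FOXM1 relative to MYBL2 was 0.310 and 0.327 in G1, 0.412 and 0.492 in S1, 0.659 and 1.01 in S2, 1.31 and 1.20 in S3, 1.07 and 1.31 in S4 and 0.571 and 0.739 in G2. The replicates nearly coincided in G1, and S3 was 4.22-fold above G1 in replicate 2 and 3.66-fold in replicate 3. MYBL2 thus exceeded FOXM1 in G1, S1 and G2, and FOXM1 exceeded MYBL2 in S3 and S4, in both replicates.

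Relative to E2F1, FOXM1 was 0.230 and 0.225 in G1, 0.315 and 0.463 in S1, 0.878 and 1.08 in S2, 1.39 and 1.28 in S3, 0.895 and 0.993 in S4 and 0.475 and 0.702 in G2. MYBL2 relative to E2F1 moved over a smaller range, from 0.741 and 0.686 in G1 to a highest value of 1.33 in S2 of replicate 2 and 1.07 in S3 of replicate 3. RBL1 relative to RB1 was 1.45 and 1.58 in G1, 1.72 and 1.85 in S1, 2.47 and 3.53 in S2, 2.85 and 3.48 in S3, 3.32 and 3.07 in S4 and 1.79 and 3.04 in G2. RBL1 exceeded RB1 in all 12 sorted libraries, and the 8 S libraries lay above both G1 libraries. Of the 36 pairs among the 9 members, 7 had ratios that did not overlap between the 8 S and the 2 G1 libraries, against 3.74% of all pairs of 10255 protein-coding genes. FOXM1 was in 5 of these 7, so the pairs are not independent, and the other 2 were E2F1 with MYBL2 and RB1 with RBL1.

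**Figure D3:**
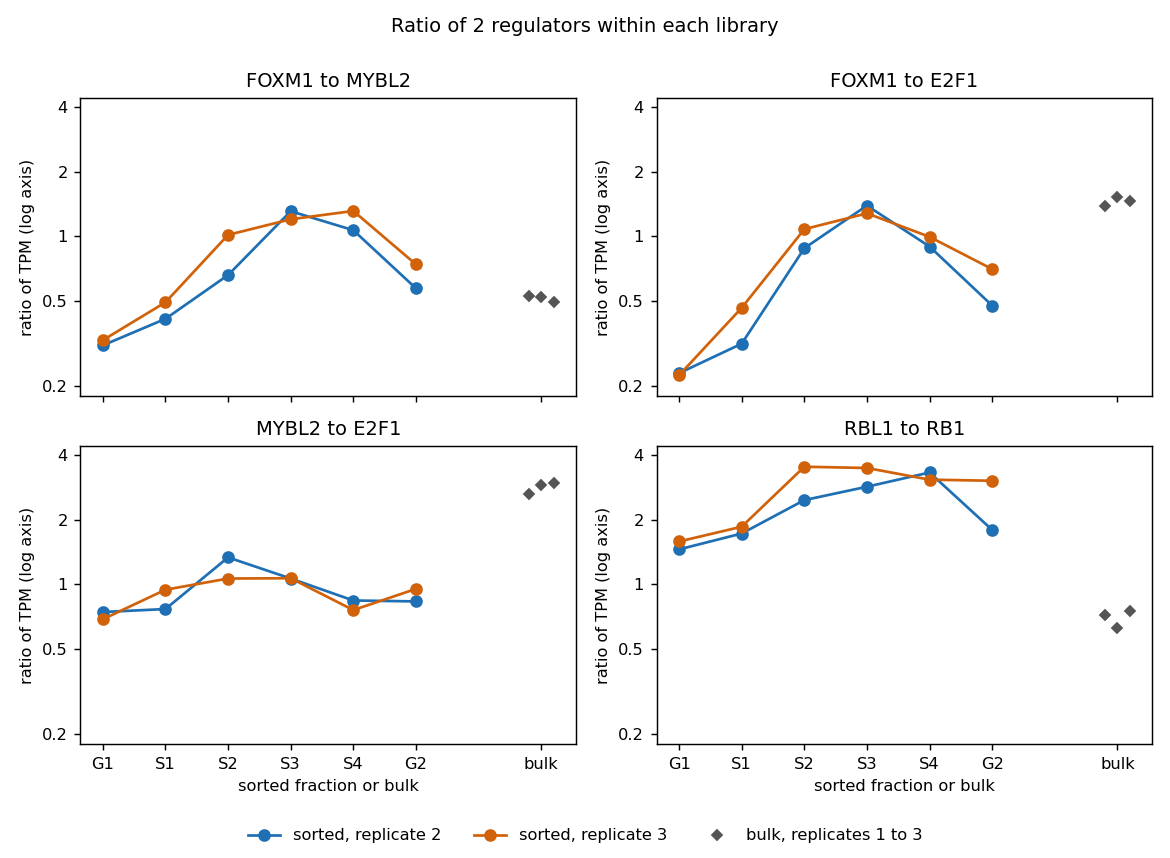
Ratio of the TPM of 2 regulators within each library (log axis) in the sorted fractions (replicate 2 in blue, replicate 3 in orange) and in bulk (grey). FOXM1 to MYBL2 goes from 0.310 and 0.327 in G1 to 1.31 and 1.20 in S3, and RBL1 to RB1 lies at 1.45 to 3.53 in sorted and 0.625 to 0.748 in bulk libraries.

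The genes that FOXM1 and the MYBL2-MuvB complex are known to activate in G2 and mitosis had the same direction as FOXM1. In a list of 25 such genes, 25 lay above 0 in S against G1 (median 1.23 on the log2 scale, all genes -0.20), in G2 against G1 (median 1.60, all genes -0.08) and in the slope over S1 to S4 (median 0.52, all genes 0.04). None passed the test by limma in these comparisons. An unadjusted p under 0.05 by limma was found for 22, 22 and 20 of them, beside 891, 469 and 500 of all 17022 genes. The list was chosen with earlier results of these data known. The voom fit called no gene at all in S against G1 or G2 against G1. TOP2A, the topoisomerase that untangles chromosomes, was at 1.30 ± 0.48 in G2 against G1, and TPX2, which activates Aurora A on the spindle, at 1.48 ± 0.49. CCNB2, a mitotic cyclin, was at 1.79 ± 0.40 (unadjusted p = 0.0013) and CDC25B, a phosphatase that activates CDK1, at 1.61 ± 0.38 (SE, unadjusted p = 0.0018).

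The list's median of log2(TPM + 1) stood at 2.36 and 3.18 in G1, 2.54 and 3.70 in S1, 3.63 and 4.31 in S2, 4.56 and 4.38 in S3, 4.23 and 5.12 in S4 and 3.65 and 5.10 in G2. In replicate 2, S3 was the highest fraction for 20 of the 25 and S4 for 5, and in replicate 3, G2 was highest for 15 and S4 for 10. Of all 17022 genes, 17.1% were highest in S3 in replicate 2 and 47.5% in G2 in replicate 3. FOXM1 was highest in S3 in replicate 2, like most of the list, and in S4 in replicate 3, unlike most of it. The genes whose pattern was most like that of FOXM1 were H2AC8, KIF11 and CIP2A (r = 0.98 each over 12 sorted libraries, among 6399 protein-coding genes, with replicate means subtracted, and 0.90, 0.99 and 0.92 without subtraction).

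**Figure D4:**
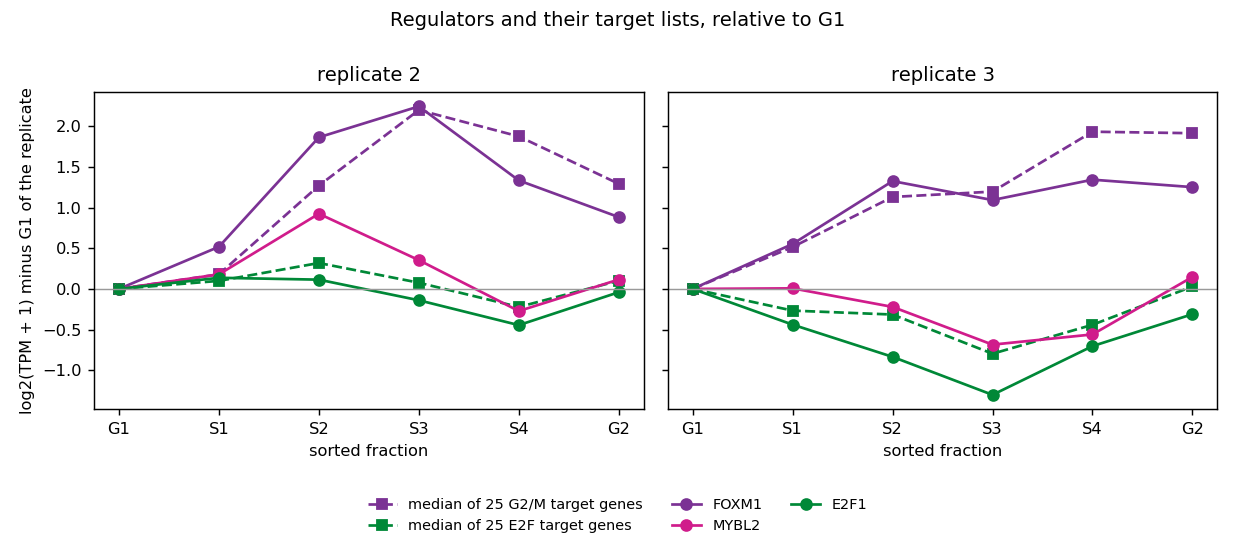
Difference from G1 of the same replicate in log2(TPM + 1) for FOXM1, MYBL2 and E2F1 (solid lines) and for the medians of 25 G2/M target genes and 25 E2F target genes (dashed lines), by sorted fraction. In replicate 2 FOXM1 and the G2/M genes are highest in S3, and in replicate 3 E2F1 is lowest in S3 with the E2F targets.

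The 25 E2F target genes of the G1/S transition had a median near that of all genes in S against G1. Of these, 4 lay above 0 in S against G1 (median -0.27, all genes -0.20), and 10 after median-ratio scaling (median -0.06). In the slope over S1 to S4, 6 lay above 0 (median -0.10, all genes 0.04), and 1 after median-ratio scaling (median -0.14). None passed the test by limma, and 1 had an unadjusted p under 0.05 in S against G1. MCM3, a subunit of the replicative helicase, was at 0.04 ± 0.59 in G2 against G1 and PCNA, the sliding clamp of DNA polymerase, at -0.26 ± 0.76. RRM2, a ribonucleotide reductase subunit, was at 0.46 ± 0.51 and SLBP, which binds histone mRNA, at -0.50 ± 0.58 (SE). In replicate 3, S3 was the lowest fraction for 21 of the 25, beside 28.1% of all genes, and in replicate 2, S4 was lowest for 15, beside 21.4% of all genes. The hepatocyte markers did the same, with 9 of 9 lowest in S3 in replicate 3 and 8 of 9 lowest in S4 in replicate 2. MCM4, another helicase subunit on this list, had the pattern most like that of E2F1 (r = 0.95 with replicate means subtracted, 0.97 without). FAM111A followed at 0.91 and 0.95, while MAGED4B had 0.91 with the subtraction and -0.018 without it.

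No gene in the lists of partners passed the test by limma between fractions. Of the 5 other E2F and DP genes, 0 lay above 0 in S against G1 (median -0.34) and in G2 against G1 (median -0.20), and 1 had an unadjusted p under 0.05 in S against G1. E2F4, the main E2F partner of p107 and p130, stood at a mean of 35.2 TPM in the sorted libraries, above every member, and TFDP1, a DP subunit, at 17.7 TPM. G2 against G1 was -0.14 ± 0.36 for E2F4, -0.21 ± 0.34 for TFDP1 and -0.37 ± 0.24 for TFDP2 (SE). Of the MuvB core genes and MYBL1, 3 of 6 lay above 0 in G2 against G1 (median 0.04), with RBBP4 at -0.11 ± 0.35, LIN54 at -0.24 ± 0.26 and LIN37 at 0.42 ± 0.30.

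Of 15 cyclins, kinases and inhibitors that set the phosphorylation of RB, 11 were tested. None of the 11 passed by limma, and 0 had an unadjusted p under 0.05 in S against G1 or G2 against G1. In S against G1, 3 of the 11 lay above 0 (median -0.37), and 4 in G2 against G1 (median -0.17). CDKN1A, the p21 inhibitor, was at 0.26 ± 1.00 in G2 against G1, CCND1, cyclin D1, at -0.34 ± 0.29 and CDKN1B, the p27 inhibitor, at 0.45 ± 0.48 (SE).

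The patterns most like those of the remaining members were those of CLDND1 for E2F3 (r = 0.95), BEX1 for E2F7 (0.95), FBXO5 for E2F8 (0.89), CYB5A for RB1 (0.91), CSE1L for RBL1 (0.96), HSPD1 for RBL2 (0.98) and SLC2A1 for MYBL2 (0.91), all with replicate means subtracted. Without that step r was 0.65 to 0.99 for the first 6 pairs and -0.19 for SLC2A1 with MYBL2. These r values are the highest among 6399 genes over 12 libraries and are descriptions only.

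In bulk libraries the order by mean TPM was MYBL2 (192 ± 9.46), FOXM1 (98.6 ± 1.12), E2F1 (68.0 ± 3.53), RBL2 (59.0 ± 1.91), RB1 (36.4 ± 2.72), E2F3 (33.5 ± 0.765), RBL1 (25.3 ± 1.35), E2F7 (15.2 ± 0.598) and E2F8 (13.1 ± 1.27) (SD, n = 3). On TPM as deposited 8 of 9 members were lower in the sorted fractions than in bulk by limma, where 80.9% of all 17174 genes passed in either direction and 57.8% passed as lower. MYBL2 differed by -2.95 ± 0.26 (SE, adjusted p = 5.27e-07), FOXM1 by -2.48 ± 0.32, RB1 by -2.37 ± 0.21 and RBL1 by -0.73 ± 0.31 (adjusted p = 0.0447). E2F8, at -1.02 ± 0.48 (adjusted p = 0.066), did not pass. The call of RBL1 was lost without any 1 of the 3 bulk libraries or of the 6 sorted libraries of replicate 2 (adjusted p from 0.0516 to 0.122 by limma), and E2F8 passed without replicate 3 of G1, S1, S4 or G2. The median was -1.73 over the members and -0.99 over all genes. Over the 10669 protein-coding genes tested, the class of all members, it was -1.74.

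The direction of this comparison depended on the scaling, and protein-coding genes held different shares of the TPM on the 2 sides. Over all genes, 3966 were higher and 9930 lower in sorted libraries as deposited. The counts were 6861 and 6079 after median-ratio scaling (median 0.19), and 10798 and 2297 after rescaling to protein-coding genes (median 1.30). Over protein-coding genes alone the median was -0.46 after median-ratio scaling and 0.61 after the rescaling. Over the members it was -0.39 and 0.74. On the protein-coding scale 8 of 9 members had a value above 0 and 5 passed as higher, beside 62.9% of all genes: RBL1 at 1.80, E2F8 at 1.37, E2F1 at 1.24, RBL2 at 0.81 and E2F3 at 0.74. MYBL2 had a value below 0 on all 3 scales, -2.95, -1.55 and -0.40, the last not passing the test. After median-ratio scaling RBL1 passed as higher (0.61), and RB1 (-1.03), RBL2 (-0.35), MYBL2 and FOXM1 (-1.10) as lower, where 39.9% of all genes passed as higher and 35.4% as lower.

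**Figure D5:**
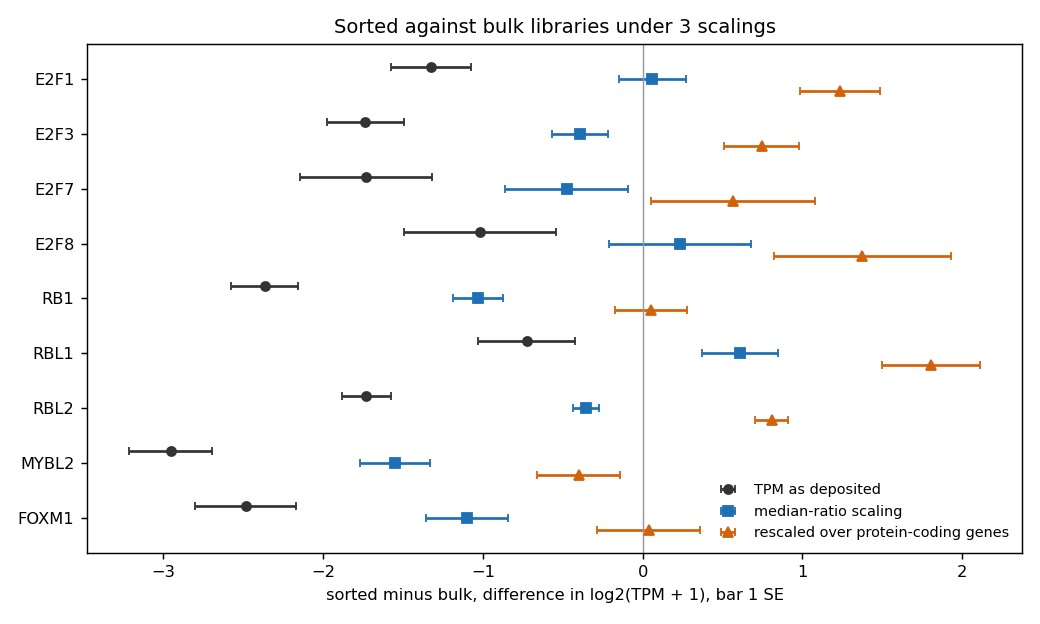
Sorted minus bulk difference in log2(TPM + 1) (horizontal axis, bars of 1 SE) for 9 regulators on TPM as deposited (circles), after median-ratio scaling (squares) and after rescaling to protein-coding genes (triangles). All 9 circles lie below 0 and 8 of the 9 triangles above 0, with MYBL2 below 0 on each scale.

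Within a library the relations of some pairs of members differed between the 2 sides, while those of FOXM1 to MYBL2 and to E2F1 overlapped. MYBL2 stood at 0.686 to 1.33 times E2F1 in the sorted libraries and at 2.63 to 2.96 times in bulk. RBL1 stood at 1.45 to 3.53 times RB1 in the sorted libraries and at 0.625 to 0.748 times in bulk, so their order was the opposite in the 2 kinds of library. Ratios did not overlap between sorted and bulk libraries for 13 of the 36 pairs of members, while 64.2% of all gene pairs did not overlap, so the members' share was below that of gene pairs at large. Ranked among 19183 protein-coding genes of the same library, E2F1 was at percentile 92.8 to 98.8 in sorted libraries and 87.6 to 88.7 in bulk. RBL1 was at a median percentile of 89.6 in sorted libraries and 72.7 in bulk. The median was also higher in sorted libraries for E2F3, E2F8, RBL2 and FOXM1. It was lower there for RB1 (72.5 in sorted, 79.5 in bulk), MYBL2 (94.3 and 96.5) and E2F7 (62.7 and 64.6).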

How the data were processed

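RNA was measured in 15 HepG2 libraries; the other 18 of the 33 samples were not analysed here. The deposited files hold log2 values, log2(TPM + 1), for 78932 identifiers. The submitters' processing notes list BWA, HISAT2, SAMtools, Trimmomatic and cutadapt with the build hg38, and state no roles. Those notes and the labels do not say which program and annotation gave the gene values. Symbols were found for 61481 identifiers, and positions and promoters come from RefSeq (GRCh38.p14).

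Read counts were recovered from the steps of the TPM values for all 50310 genes above 0 in at least 3 libraries. Intervals from them cover counting error only. No pair of replicates agreed within sampling noise.

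The main test was limma 3.58.1 (R 4.3.3) with an intensity trend on log2(TPM + 1), a pseudocount of 1, a mean TPM of at least 1, no replicate term and Benjamini-Hochberg adjustment over all genes at 0.05. The 12 sorted libraries shared 1 fit, and all 15 shared the fit against bulk. Fold changes on this scale understate those of low genes. In a simulation of G2 against G1 over 17022 genes, 1% of the genes shifted by 1 log2 unit and 48% of those shifted by 2 were called. The shifted genes were drawn from those with a mean TPM of at least 5, and noise was independent between libraries. The rates therefore do not cover lower genes such as E2F7, nor deviations shared by a replicate number.

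The 10 members, the lists and the tests were chosen with earlier results of these data known. Named genes were all members, per list the 2 with the highest mean TPM and the 2 with the smallest p in G2 against G1, and per member its most similar gene or genes by correlation among genes whose TPM averaged 5 or more. Alternatives changed the pseudocount, filter, scaling, replicate term and libraries, with voom on recovered reads. Rescaling each library to its protein-coding genes was added after the data had been seen. Python 3.11.15 drew the figures.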

Additional observations from a re-analysis of the deposited data

How the results depend on the processing

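No member was called between fractions under any alternative run, so the members' fraction differences can change here in sign or size but not in call. Of 798 alternative values of single members, 713 kept sign and side of the threshold. A further 19 kept their sign and lost a call, 5 kept it and gained one, and 61 changed sign. Of those 61, 6 also lost a call, 1 gained one, 10 were called in both directions and 44 in neither. Over all genes, the count with any difference among the 6 fractions was 3, and it was 0 with a mean TPM of at least 5, 0 with voom on recovered reads and 5 with the replicate block and median-ratio scaling together. For S against G1 the count of 0 became 2 with median-ratio scaling, 2 with quantile normalization, 2 with the block and median-ratio scaling, 3 with no filter, 4 with a pseudocount of 0.1 and 1 after rescaling over protein-coding genes. For G2 against G1 the count of 1 became 106 when only the G1 and G2 libraries were fitted, and 0 with a mean TPM of at least 5, with no filter or with voom. For the slope over S1 to S4 the count of 0 became 1 with a pseudocount of 0.1 and 1 after rescaling. The cause of these changes was not tested.

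Sorted against bulk depended on scaling. The 8 members called became 5 with median-ratio scaling, 5 with quantile normalization, 5 with voom and 5 after rescaling over protein-coding genes, an alternative chosen after seeing the data. Over all genes the count of 13896 became 8947 with a mean TPM of at least 5, where fewer genes are tested. In the order median-ratio, quantile, voom, block with median-ratio, and protein-coding rescaling, the log2 difference turned positive at 0.062, 0.71, 0.21, 0.086 and 1.24 for E2F1, at 0.23, 0.081, 0.44, 0.25 and 1.37 for E2F8, and at 0.61, 0.90, 0.80, 0.64 and 1.80 for RBL1. RBL2 turned to 0.23 with quantile normalization and 0.81 with the rescaling. The rescaling alone turned E2F3 to 0.74, E2F7 to 0.56, RB1 to 0.052 and FOXM1 to 0.037. In the first 4 of these settings the E2F3 slope turned to -0.011, -0.015, -0.0092 and -0.011. In all 5, S against G1 turned to 0.056, 0.055, 0.078, 0.056 and 0.040 for RBL2 and to 0.17, 0.12, 0.18, 0.17 and 0.16 for MYBL2. Members higher than G1 in all 5 other fractions went from 1 to 2 with median-ratio scaling and with the rescaling. Members lower than G1 went from 1 to 0 with both. Over all genes the share that was higher went from 2.06% to 4.52% and 4.11% in that order. The share that was lower went from 6.73% to 5.16% and 6.23%.

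Leaving out 1 library at a time gave 0 to 2 genes with any difference, 0 to 2 for S against G1, 0 to 2 for G2 against G1, and 7 to 9 members for sorted against bulk. A fraction left with 1 library was assumed to vary like the others. S against G1 then ran from -1.002 to 0.098 for E2F1, -0.50 to 0.038 for E2F3, -0.56 to 0.89 for E2F7, -0.54 to 1.004 for E2F8, -0.064 to 0.43 for RBL1 and -0.52 to 0.46 for MYBL2. G2 against G1 ran from -0.73 to 0.37 for E2F1, -0.42 to 0.53 for E2F3, -0.55 to 0.91 for E2F7, -1.17 to 0.85 for E2F8, -0.32 to 0.95 for RBL1, -0.18 to 0.49 for RBL2 and -0.37 to 0.64 for MYBL2. The slope ran from -0.11 to 0.18 for E2F3, -0.46 to 0.0042 for E2F8 and -0.23 to 0.023 for RB1. FOXM1 kept its sign, from 0.80 to 1.77 for S, 0.40 to 1.74 for G2 and 0.098 to 0.40 for the slope. RB1 kept its sign in S against G1, from -0.74 to -0.37, and in G2 against G1, from -0.51 to -0.0010. Also of 1 sign was the slope of E2F7, from -0.52 without S4 replicate 3 to -0.097 without S4 replicate 2. So was that of MYBL2, from -0.33 without S1 replicate 2 to -0.083 without S1 replicate 3. The slopes of E2F1 (-0.29 to -0.037), RBL1 (0.0026 to 0.25) and RBL2 (0.064 to 0.13) did not change sign either. S against G1 of RBL2 ran from -0.24 without G1 replicate 3 to -0.043 without G1 replicate 2.

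The labels number the sorted libraries 2 and 3 in every fraction, with no statement of what the number shares. Differences of replicate 3 from replicate 2 correlated across genes between fractions at 0.31 to 0.38, with a median of 0.32 over 15 pairs of fractions. With the replicate number as a block, 3 genes were called among fractions, 0 for S against G1, 1 for G2 against G1 and 0 for the slope, and no member. For sorted against bulk the block called 9 of 9 members and 13619 of all genes.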
